A study of Mus musculus with 6 samples.

Results

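SMAD1/5 peaks were examined at the loci of Klf2, Klf4 and Klf5, which encode 3 Krüppel-like transcription factors, in mouse E14 embryonic stem cells (ESCs) and in epiblast stem cells made from that line (ESD-EpiSCs). The members are the peaks that overlap a fixed mm9 window for each gene: chromosome 8 from 74745000 to 74945000 for Klf2 (200 kb), chromosome 4 from 55440000 to 55645000 for Klf4 (205 kb), and chromosome 14 from 99600000 to 99820000 for Klf5 (220 kb). The window centre is the midpoint of these limits, so distances from it are not distances from the gene. Above and below the centre mean higher and lower coordinates. The windows held 30 of the 24441 peaks in the 4 lists, 9 from ESCs in LIF+serum, 21 from ESCs in LIF+BMP-4, and 0 from ESD-EpiSCs after either 1.5 h or 24 h of BMP-4. Every library was made with the same anti-Smad1 antibody, and each condition was 1 library, so differences rest on single libraries and are given without a test. The LIF+serum cells grew in medium with 15% fetal bovine serum and LIF at 1000 U/ml. The LIF+BMP-4 cells grew in serum-free basal medium with BMP-4 at 10 ng/ml and, by their label, LIF at a dose not given. The ESC media thus differed in serum as well as in added BMP-4, and these cannot be told apart. ESD-EpiSCs were kept with FGF2 at 12 ng/ml and activin A at 20 ng/ml and then received BMP-4 at 10 ng/ml for the stated time. Cell state, medium and BMP-4 exposure therefore cannot be told apart between ESCs and ESD-EpiSCs, and all cells trace to a single ESC line. The lists hold peaks and no reads, so the depth behind each is unknown, and cell identity cannot be checked against marker genes.

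Bone morphogenetic protein (BMP) receptors phosphorylate SMAD1 and SMAD5, which then enter the nucleus with SMAD4 and bind regulatory DNA. KLF2, KLF4 and KLF5 are zinc-finger factors that bind GC-rich and CACCC-type sequences and help to hold mouse ESCs in the naive state, with partly overlapping functions. KLF4 is also a reprogramming factor, KLF2 is known from endothelial cells and lymphocytes, and KLF5 is needed in the early embryo. The question at these loci is whether SMAD1/5 occupies chromatin around each Klf gene, as would be looked for at a direct BMP target, and whether it does so in both pluripotent states.

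The promoters are shown first because they are the part of each locus whose sequence could be read. RefSeq promoters on GRCm38.p6 were matched for 2 of the 3 genes. The 250 bases before the annotated start are printed 5′ to 3′ on the strand of the gene, the plus strand of chromosome 8 for Klf2 and the minus strand of chromosome 4 for Klf4. Capitals mark GGAGCC or its reverse complement GGCTCC, a GC-rich element of the kind SMAD1/5 binds.
Klf2: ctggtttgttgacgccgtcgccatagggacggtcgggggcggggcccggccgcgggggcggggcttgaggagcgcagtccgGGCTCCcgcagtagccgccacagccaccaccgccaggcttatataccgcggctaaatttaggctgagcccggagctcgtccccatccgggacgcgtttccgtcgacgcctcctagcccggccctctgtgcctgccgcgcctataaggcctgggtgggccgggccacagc
Klf4: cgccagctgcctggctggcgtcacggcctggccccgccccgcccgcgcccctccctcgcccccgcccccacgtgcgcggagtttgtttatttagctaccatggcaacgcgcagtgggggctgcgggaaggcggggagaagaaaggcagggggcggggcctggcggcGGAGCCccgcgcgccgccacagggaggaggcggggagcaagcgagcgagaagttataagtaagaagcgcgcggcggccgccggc

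Both promoters were GC-rich, at 71.2% for Klf2 and 74.0% for Klf4, against a median of 52.4% over 32851 RefSeq promoter windows of the same length. Each held 1 match to GGAGCC on either strand, an element present in 26.0% of those windows. The palindrome GGCGCC, found in 9.59% of windows, had 0 matches in either promoter, as did the SMAD palindrome GTCTAGAC (0.167% of windows). The shorter element GTCT, found in 82.9% of windows and contained in that palindrome, also had 0 matches in both. The KLF-type element CACCC, found in 52.0% of windows, had 1 match in Klf2, on the opposite strand, and 0 in Klf4. These matches describe letters only, and mm9 gene positions were not used, so no peak is placed on or off a promoter here.

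The 3 windows differed in how many ESC peaks they held. The Klf5 window held 13 LIF+BMP-4 peaks and 6 LIF+serum peaks, the Klf2 window 6 and 1, and the Klf4 window 2 of each. Klf5 was thus the most densely covered of the 3 in both media, with 5.91 LIF+BMP-4 peaks and 2.73 LIF+serum peaks per 100 kb, where the whole lists averaged 0.558 and 0.356. The Klf2 window held 3.00 and 0.500 peaks per 100 kb in the same order, and the Klf4 window 0.976 in both media. Merging the peaks of both media gave 22 ESC regions over the 3 windows: 8 were called in both media, 13 in LIF+BMP-4 alone and 1 in LIF+serum alone. A call in LIF+BMP-4 alone need not be a separate site. At Klf5, those starting at 99715498 and 99753192 lay 110 and 328 bp from serum peaks 1396 and 1625 bp wide. Each of these serum peaks overlapped another LIF+BMP-4 peak and was counted once, which bears on the counts of both media.

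**Figure D1:**
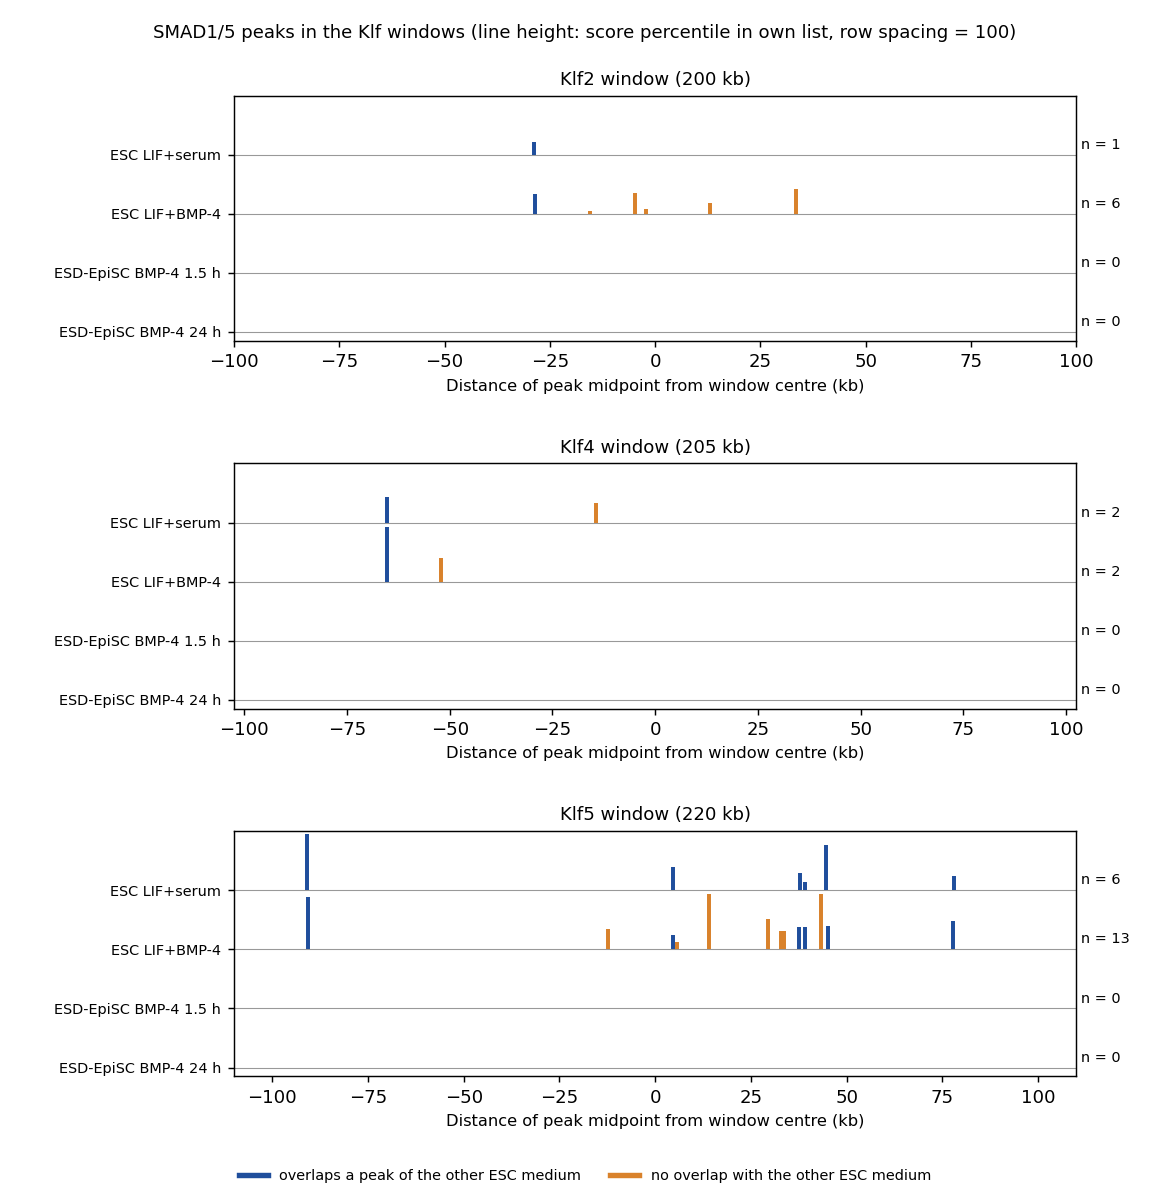
Peaks of the 4 lists in each Klf window, drawn as vertical lines at the distance of the peak midpoint from the window centre (kb), with line height showing the score percentile within the peak's own list. The Klf5 window carries 6 LIF+serum and 13 LIF+BMP-4 peaks, Klf4 carries 2 and 2, Klf2 carries 1 and 6, and the rows for ESD-EpiSCs are empty.

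In the lists at full length, almost all LIF+serum peaks at the Klf loci were also called in LIF+BMP-4. Most LIF+BMP-4 peaks were not called in serum, whose list was the shorter, at 9387 peaks against 14696. Overlap means at least 1 shared base. Of the 9 LIF+serum peaks, 8 (88.9%) overlapped a LIF+BMP-4 peak, beside 58.8% over the whole list. This share rests mostly on the Klf5 window, where LIF+BMP-4 peaks were densest: it held 6 of the 8, and Klf2 and Klf4 held 1 each. Of the 21 LIF+BMP-4 peaks, 8 (38.1%) overlapped a LIF+serum peak, near the 38.7% of the whole list, so that share is not particular to these loci. The exception in serum lay in the Klf4 window. This contrast between the media depended on list length. With the LIF+BMP-4 list cut to the length of the LIF+serum list, 6 of the 9 LIF+serum peaks kept an overlap. LIF+BMP-4 peaks with a serum overlap were then 0 of 1 at Klf2, 1 of 2 at Klf4 and 5 of 8 at Klf5.

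At Klf5, all 6 LIF+serum peaks had a counterpart in LIF+BMP-4. The highest-scoring of them lay at 99618246 to 99619824, 91.0 kb below the window centre, with rank 365 of 9387 (96.1st percentile, score 206.19). Its LIF+BMP-4 partner, at 99618963 to 99619633, ranked 1573 of 14696 (89.3rd percentile, score 159.74). Rank 1 is the highest score of a list, the percentile is the share of the list scoring no higher, and the score is the authors' own value per peak. This site therefore stood high in both media, in the top 10% in serum and just below it in BMP-4. It was also set apart from the other Klf5 sites, 77.8 kb from the next LIF+BMP-4 peak in the window and 94.2 kb from the next LIF+serum peak. A LIF+BMP-4 peak outside the window lay nearer, 65.4 kb away.

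The remaining Klf5 sites concentrated on the other side of the centre. A stretch from 99714258 to 99755221 (41.0 kb, delimited after the positions were seen) held 10 of the 13 LIF+BMP-4 peaks and 4 of the 6 LIF+serum peaks. Its LIF+BMP-4 peaks covered 5998 bp, and the gaps between them ran from 117 bp to 14.7 kb. The median gap from a Klf5 peak to the next LIF+BMP-4 peak was 1.11 kb, beside 17.2 kb over the whole list. It was 11.2 kb at Klf2 and 12.5 kb at Klf4, nearer the whole-list value. For LIF+serum the median gap was 18.2 kb at Klf5, beside 27.1 kb over the whole list, and the Klf5 gaps ran from 0.38 to 94.17 kb. It was 49.9 kb for the 2 LIF+serum peaks at Klf4 and 101.5 kb for the 1 at Klf2, both above the whole-list value.

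The 2 highest LIF+BMP-4 peaks of the Klf5 window belonged to the class with no serum overlap. The highest, at 99753192 to 99753595, ranked 968 (93.4th percentile, score 195.20). It lay only 328 bp from the edge of a LIF+serum peak at 99753924 to 99755548, which was 1625 bp wide and ranked 2200 (76.6th percentile, score 99.34). That wide serum peak overlapped another LIF+BMP-4 peak instead, at 99754708 to 99755221, which ranked only 8900 (39.4th percentile, score 68.14).

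The second, at 99723633 to 99724498 and 14.1 kb above the centre, ranked 1023 (93.0th percentile, score 191.40). No LIF+serum peak came within 8.24 kb of it. High-scoring LIF+BMP-4 peaks seldom lacked a serum counterpart: of the 1470 in the top 10% of the list, 176 (12.0%) did. The other 5 LIF+BMP-4 peaks without serum overlap at Klf5 scored from 54.50 to 76.69. The fourth-highest LIF+BMP-4 peak of the window, at 99739186 to 99739759, was among them, at rank 7264 (50.6th percentile). Along the stretch, the LIF+BMP-4 peaks from 99715498 to 99744102 formed an unbroken run without serum overlap. The peak before this run overlapped a serum peak, and the peaks after it were of both classes. In the whole Klf5 window, the median percentiles of LIF+BMP-4 peaks were 38.9 for the 6 with a serum overlap and 33.7 for the 7 without. Over the whole list these medians were 72.6 and 38.2.

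The other serum sites at Klf5 were weaker. The third-ranked LIF+serum peak, at 99713992 to 99715387 and 4.7 kb above the centre, ranked 5684 (39.5th percentile, score 64.39), and its LIF+BMP-4 partner at 99714258 to 99714907 ranked 11233 (23.6th percentile, score 58.87). The last 3 scored between 53.95 and 59.76 in serum. Their LIF+BMP-4 partners scored between 66.49 and 75.26 and stood at the 37.3rd to the 48.8th percentile.

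At Klf4, a single site was called in both media, and its standing differed between the lists. It lay 65.3 kb below the window centre, at 55476821 to 55477635 in LIF+serum and at 55476885 to 55477673 in LIF+BMP-4. In LIF+BMP-4 it ranked 1162 of 14696 (92.1st percentile, score 182.30), whereas in LIF+serum it ranked 5320 of 9387 (43.3rd percentile, score 66.31). Ranks from lists of unequal length do not measure a change in occupancy, and the 2 scores are not on a common scale. The Klf4 window also held 1 peak called in a single medium in each list. The LIF+BMP-4 one, at 55490134 to 55490672, ranked 8930 (39.2nd percentile, score 67.94) and lay 12.5 kb from the shared site. The LIF+serum one, at 55527533 to 55528463 and 14.5 kb below the centre, ranked 6289 (33.0th percentile, score 61.14), and the nearest LIF+BMP-4 peak was 36.9 kb away. No ESC peak was called on the higher-coordinate side of the Klf4 window centre.

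At Klf2, the calls were numerous in LIF+BMP-4 but low in rank. The only LIF+serum peak, at 74815952 to 74816745 and 28.7 kb below the centre, ranked 7415 of 9387 (21.0th percentile, score 56.57). It overlapped the LIF+BMP-4 peak at 74816095 to 74816926, which ranked 9763 of 14696 (33.6th percentile, score 64.15). The highest LIF+BMP-4 peak of the window lay at 74878122 to 74878808, 33.5 kb above the centre, and ranked 8595 (41.5th percentile, score 69.71). The next, at 74839859 to 74840447, ranked 9471 (35.6th percentile, score 65.59). Closest to the centre, 2.1 kb below it, was a peak at 74842568 to 74843204, which ranked 13447 (8.5th percentile, score 52.79). All 6 LIF+BMP-4 peaks at Klf2 scored below the list median of 76.38, and the lowest of them scored 51.46, where the list begins at 50.00.

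The count at Klf2 depended on the length of the list, whereas that at Klf5 did so less. The LIF+BMP-4 list was reduced to its 9387 highest-scoring peaks, the length of the LIF+serum list, which kept scores of 66.05 and above. The Klf2 window then held 1 LIF+BMP-4 peak, as many as in LIF+serum, and that peak did not overlap the serum one. The next LIF+BMP-4 peaks at Klf2 missed the cut narrowly, at rank 9471 (score 65.59) and rank 9763 (score 64.15). The latter is the one that overlaps the serum peak, so its loss depends on where the cut fell. Klf4 stayed at 2 peaks in each medium. Klf5 held 8 in LIF+BMP-4 against 6 in LIF+serum, and 5 of the 8 overlapped a serum peak. The share of the whole shortened list that overlapped a serum peak was not computed. The 5 of 8 therefore cannot be called particular to Klf5. At equal list length only Klf5 therefore had more calls in LIF+BMP-4 than in LIF+serum, by 2 peaks and with no replicate behind either number.

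**Figure D2:**
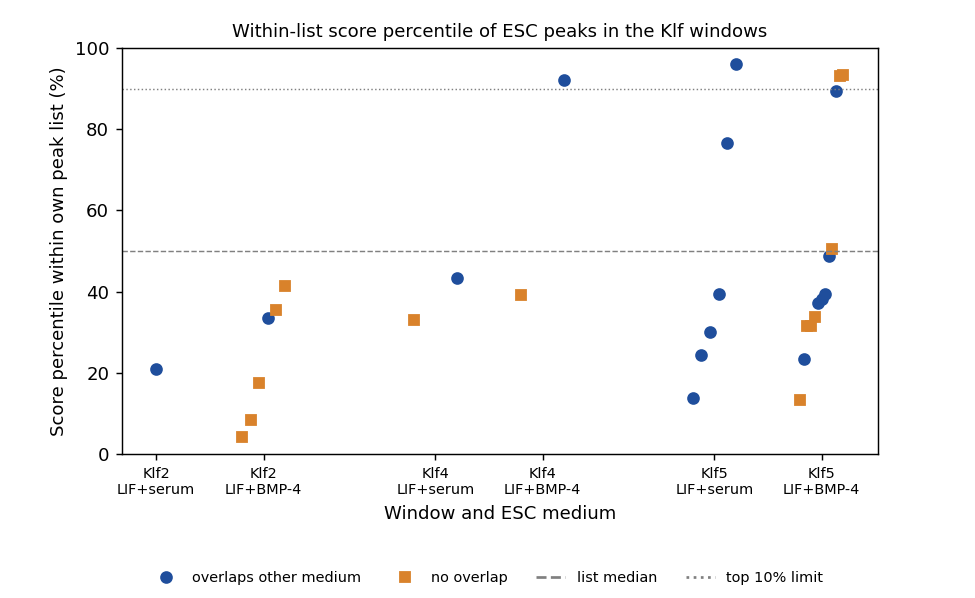
Score percentile within its own list (vertical axis, %) of every ESC peak in the 3 windows, by gene and medium, where each point is 1 peak and the dashed and dotted lines mark the list median and the top 10%. All 6 LIF+BMP-4 peaks at Klf2 lie below the median, and 3 LIF+BMP-4 peaks, 2 at Klf5 and 1 at Klf4, lie in the top 10%.

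Most peaks at the Klf loci were modest calls within their lists. In LIF+serum, 7 of 9 scored below the list median, and 1 of 9, at Klf5, was in the top 10%, a class that by construction holds 10.0% of the list. In LIF+BMP-4, 16 of 21 scored below the list median and 3 of 21 were in the top 10%. The median percentile was 33.0 for the serum peaks and 37.3 for the LIF+BMP-4 peaks. Sites called in both media were no exception. Of the 8 pairs, 6 stood below the whole-list median for shared peaks in LIF+serum (63.0th percentile), and 6 did so in LIF+BMP-4 (72.6th percentile). The percentile was higher in LIF+BMP-4 for 5 pairs and in LIF+serum for 3, an order that turned with list length. With the LIF+BMP-4 list at the length of the LIF+serum list, 2 pairs lost their LIF+BMP-4 peak. Of the 6 left, the percentile was higher in LIF+BMP-4 for 1, the Klf4 site (87.6 against 43.3), and in LIF+serum for the 5 at Klf5. The direction of this shift was fixed, since the cut can only lower LIF+BMP-4 percentiles and leaves those of LIF+serum unchanged. Klf5 partners that lay just above the cut came to stand at 1.8, 3.4 and 5.2. The shift therefore does not show that Klf5 sites stood higher in serum.

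Paired peaks lay close together. Their midpoints were 47.0 to 263.0 bp apart, with a median of 134.5 bp, and the LIF+serum peak was the wider in 7 of 8 pairs. The window peaks were 592 to 1625 bp wide in LIF+serum and 404 to 866 bp wide in LIF+BMP-4. Their median widths of 931 and 629 bp stood beside whole-list medians of 811 and 500 bp, so serum peaks were wider across the genome as well.

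The number of peaks at each locus was set beside all consecutive bins of the same length along the chromosomes. In LIF+BMP-4, 0.284% of 11991 bins held at least 13 peaks, as the Klf5 window did, and in LIF+serum 1.67% held at least 6. For Klf2 the shares were 3.90% of 13190 bins with at least 6 LIF+BMP-4 peaks and 34.6% with at least 1 LIF+serum peak. For Klf4, 25.7% of 12868 bins held at least 2 LIF+BMP-4 peaks and 17.6% at least 2 LIF+serum peaks, so the Klf4 counts were common ones. With the LIF+BMP-4 list at the length of the LIF+serum list, 0.625% of bins held as many as the 8 peaks of Klf5, 34.5% as many as the 1 of Klf2 and 17.2% as many as the 2 of Klf4. Bins include stretches without genes, whereas each window was chosen for its gene, so these shares describe the lists and are no test.

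**Figure D3:**
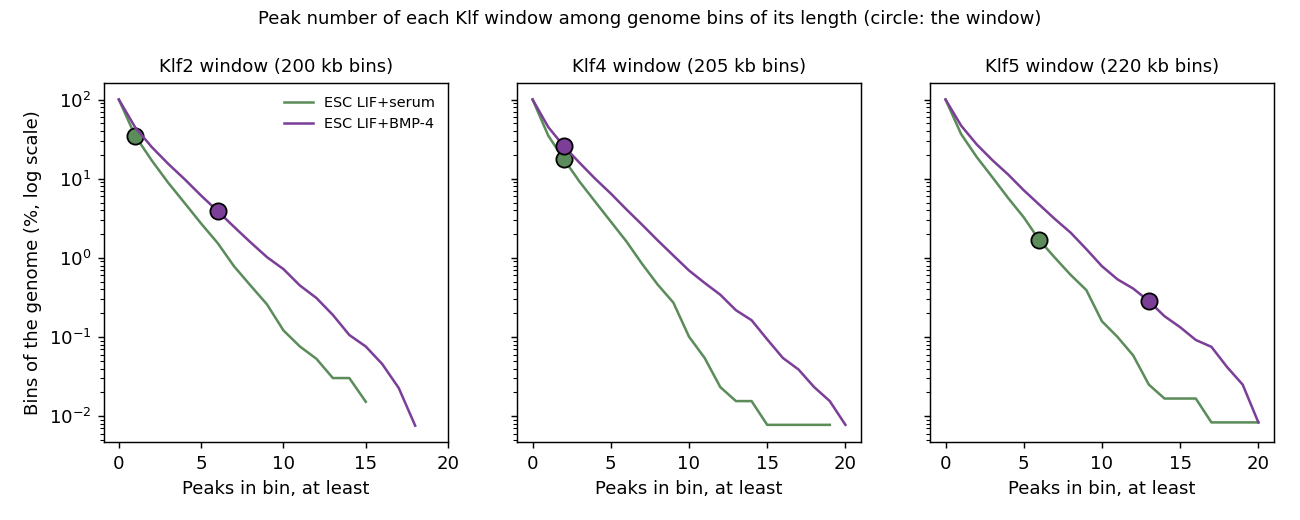
Share of genome bins (%, log axis) that hold at least the number of peaks on the horizontal axis, for bins of each window's length, with 1 curve per ESC medium. The circles mark the Klf windows, of which Klf5 lies farthest down both curves (1.67% and 0.284% of bins).

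In ESD-EpiSCs no peak was called in any of the 3 windows, at 0 of 225 peaks after 1.5 h and 0 of 133 after 24 h. Such an absence was the usual state of these short lists: a peak was present in only 1.43%, 1.47% and 1.56% of bins of the Klf2, Klf4 and Klf5 window lengths at 1.5 h, and in 0.887%, 0.901% and 0.976% at 24 h. The nearest 1.5 h peak to the Klf2 window lay 1.20 Mb outside it, at 76142980 to 76143208 on chromosome 8, and ranked 74 of 225. For Klf4 the nearest 1.5 h peak was 11.93 Mb away and for Klf5 4.92 Mb. At 24 h the nearest peaks were 9.44 Mb from Klf2, 25.94 Mb from Klf4 and 17.85 Mb from Klf5. The ESC peaks at Klf loci were thus not called in ESD-EpiSCs given BMP-4, and with depth unknown a missing call does not show missing binding. No ESD-EpiSC library without added BMP-4 was analysed here.

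The closest ESC peaks outside the window limits were those flanking Klf4, 18.6 kb and 19.6 kb out in LIF+serum (ranks 8783 and 5608) and 18.7 kb and 19.7 kb out in LIF+BMP-4 (ranks 8896 and 5260). For Klf5, the closest were 28.1 kb out in LIF+serum (rank 4878) and 46.5 kb out in LIF+BMP-4 (rank 14300). For Klf2 they were 30.5 kb out in LIF+serum (rank 3440) and 89.3 kb out in LIF+BMP-4 (rank 9404). Just inside the limits, the outermost Klf5 peak was the strong shared site 91.0 kb from the centre. By gene order in RefSeq, the protein-coding neighbours are Ap1m1 and Eps15l1 for Klf2, Rad23b and Actl7b for Klf4, and Pibf1 and Klf12 for Klf5. A peak in a window need not act on the Klf gene for which the window is named.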

How the data were processed

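Chromatin immunoprecipitated with anti-Smad1 was sequenced from 4 libraries, and 2 input libraries were not analysed here. Per the submitters' processing notes, Bowtie 1.1.0, Picard and MACS 1.4.2 were used on mm9, with no role given for each. The read filters, list controls and depth were not given in the sources used here. Each library has 1 list of peaks deposited by the authors, with a score per peak whose scale is not stated. The score was used only to rank peaks within a list. Positions are 1-based mm9.

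Analysis used Python 3.11.15 with numpy 2.4.6, and figures matplotlib 3.10.9. Peaks overlapping a window were counted. Sharing required 1 bp, and touching or overlapping peaks were merged into regions. Bins ran from the first base to the last peak of each placed chromosome. Overlap, window and rank code was tested on simulated data (5 of 5 checks passed on 2000 peaks). Alternatives were a score of at least 100, LIF+BMP-4 shortened to the LIF+serum length, the central 50% of each window, midpoints inside the window, overlap of 50% of the shorter peak, and extension by 1 kb. Named peaks are the 3 highest per window and ESC list and the highest found in 1 medium only. Others named were chosen after their values were seen. Members and settings were chosen with earlier results of these data known.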

Additional observations from a re-analysis of the deposited data

How the results depend on the processing

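A score of at least 100 left 0 peaks at Klf2 in either ESC medium, 0 (LIF+serum) and 1 (LIF+BMP-4) at Klf4, and 1 and 3 at Klf5. Sites called in both media then numbered 0, 0 and 1. With the LIF+BMP-4 list as long as the LIF+serum list, Klf2 held 1 LIF+BMP-4 peak and 0 shared sites, and Klf5 held 8 LIF+BMP-4 peaks. In the central 50% of each window, Klf4 kept 1 LIF+serum peak, 0 LIF+BMP-4 peaks and 0 shared sites, and the highest LIF+serum rank at Klf5 became 2200. These changes follow from the fewer peaks each setting keeps. Of 62 ESC values recomputed, 46 stayed within 1.5 times and 16 moved further. Some of the 46 could not move, so that number is no measure of stability. LIF+serum counts and ranks were fixed when only the LIF+BMP-4 list was shortened. A highest rank was fixed wherever a cut on score or list length kept that peak. Another 60 values, for ESD-EpiSCs, were 0 and could not move under these settings. Pairs at a higher percentile in LIF+BMP-4 fell from 5 to 1 at equal list length, a setting applied to them after the data were seen. That setting could lower this number but not raise it. Midpoint membership, overlap of 50% and extension by 1 kb moved none past that limit. Where no peak remained, no rank was given. No paired analysis was possible because there is only 1 library per condition. Depth is unknown, so absence of a call has no stated precision.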
